A study of Bos taurus with 90 samples.

Results

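The mural granulosa cells (MGCs) of small and medium bovine antral follicles were compared, in 6 of the 90 libraries of a series that sequenced mural cells, cumulus cells (CCs) and the oocyte of each follicle. There were 30 MGC libraries in all. The 6 libraries were those of 3 small and 3 medium follicles that the study kept as healthy, and each change between these stages was then followed in the 11 MGC libraries of the other retained small and medium follicles. The study classed these other follicles as unhealthy by their transcriptome, although they looked normal, and left them out of its analysis of development, so they are not further replicates of the healthy set. The comparison addressed how the mural layer changes as the follicle passes from the small to the medium class.

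The ovaries came from Bos taurus cows at a slaughterhouse, without treatment, and the follicles were sorted by diameter. The healthy small follicles, S4, S5 and S6, measured 3.5 to 3.7 mm and the healthy medium follicles, M5, M6 and M8, 6.7 to 7.0 mm. The other retained follicles comprised 6 small ones of 3.1 to 3.8 mm (S1, S2, S3, S7, S8 and S9) and 5 medium ones of 6.2 to 7.0 mm (M1, M2, M3, M4 and M7). Follicles with visible atresia had been discarded before sequencing, and the healthy set was chosen by the study from the MGC expression of marker genes, so it was chosen on the same libraries that are compared here. All 3 healthy small follicles share the first 3 digits of their identifier, which no healthy medium follicle has. Among the healthy medium follicles, M5 and M8 share theirs, and M6 has others. Whatever these digits stand for and the stage therefore cannot be told apart within the healthy set. Which follicles came from the same animal is not given by the sources used here. The methods describe batches of 1 or 2 ovaries and several animals for each size class, so follicles of a stage may share an animal. The p-values treat each follicle as independent and are too small where they do.

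Granulosa cells line the wall of the antral follicle. The mural layer lies against the basal lamina, while the cumulus cells surround the oocyte and are coupled to it. Under follicle-stimulating hormone, mural cells proliferate and convert androgens from the theca into oestradiol, and they shift from dividing to making more hormone as the follicle grows. Follicles that do not keep growing become atretic, and their granulosa cells die by apoptosis.

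Genes carry Ensembl identifiers in the deposited table, which no table used here pairs with symbols. The genes are therefore described by their values, the roles of single genes are not stated, and neither pathway lists nor cell type markers could be applied. The labelled cell type was for the same reason not checked against its marker genes. These are bulk libraries, in which fewer cells of a type and less RNA per cell cannot be told apart.

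Total counts were 32471324 to 36668587 in the healthy small, 35466261 to 39266980 in the healthy medium and 26739954 to 38374499 in the other retained small and medium libraries. Between 16716 and 18651 genes had a count in these 17 libraries. Healthy libraries of one stage differed from each other far beyond sampling noise, by a chi-square of 37.7 to 80.0 per gene between small and 151 to 244 between medium follicles. No 2 of them were 1 library deposited more than once.

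From small to medium healthy follicles, 85 genes rose and 162 fell. A gene counted as differentially expressed (DEG) with a fold change above 2 and an adjusted p under 0.05 from edgeR's quasi-likelihood test. The 247 DEGs were 1.68% of the 14725 genes tested, 0.577% rising and 1.1% falling. Their 3 small and 3 medium libraries did not overlap in any of the 247 genes, but they did not overlap in 37.6% of all genes tested either. The genes that rose had a median log2 fold change of 1.52, with quartiles of 1.27 and 1.81 and a maximum of 5.55. Those that fell had a median of -1.80, with quartiles of -2.35 and -1.57 and a minimum of -6.98. Changes of more than 3 on the log2 scale were few, 6 upward and 16 downward. The median over all genes tested was 0.

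The number of DEGs depended on each follicle. It was 5, 11 and 4 without S4, S5 and S6, 8 without M6, 198 without M5 and 0 without M8, where edgeR's smallest adjusted p was 0.0555 and 1654 genes had an unadjusted p under 0.05 with the fold change. In each of these 6 fits all 247 genes kept their direction, and between 240 and 246 kept a fold change above 2. The kept direction follows from the choice of genes, since their small and medium libraries do not overlap, and is no support for the calls. DESeq2 called 1303 genes (9.23% of those it tested) on the same 10 healthy libraries, 504 rising (3.57%) and 799 falling (5.66%), among them all 85 rising and 159 of the 162 falling genes.

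**Figure D1:**
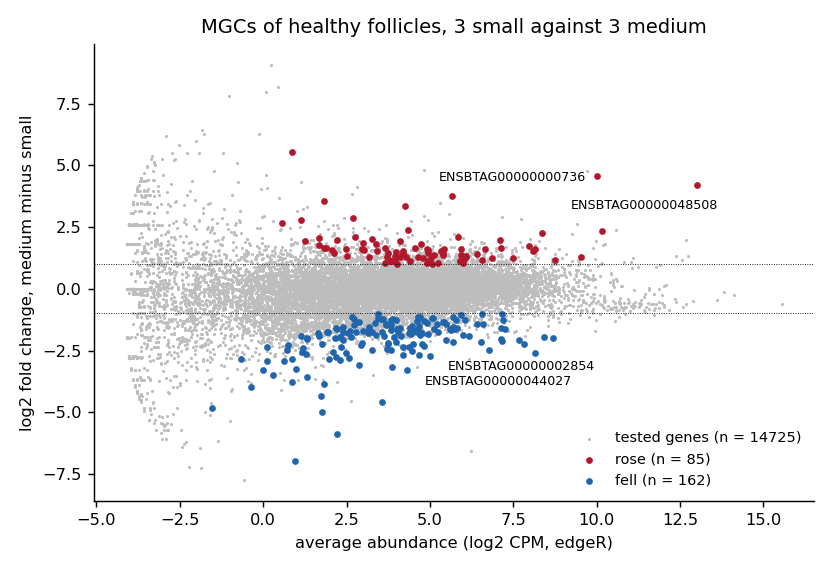
Log2 fold change of each tested gene between MGCs of 3 small and 3 medium healthy follicles against its average abundance in log2 CPM (counts scaled to the library total), with the 85 genes that rose in red, the 162 that fell in blue and the remaining genes in grey. The dotted lines mark a fold change of 2, and the named genes that rose lie at the right, among the most abundant genes, whereas those that fell have a middling abundance.

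Among the DEGs whose mean log2 CPM reached 3, the largest rise was that of ENSBTAG00000000736. CPM scales a count to the library total. In small follicles its CPM was 45.8 in S4, 33.2 in S5 and 30.6 in S6, and in medium follicles 744 in M5, 1512 in M6 and 509.8 in M8. The lowest medium value lay far above the highest small one, and the medium follicles differed widely among themselves, with 922 ± 524 (SD, n = 3) against 36.5 ± 8.16 (SD, n = 3). The log2 fold change was 4.58 with an SE of 0.96 (edgeR adjusted p = 0.0408). When any 1 of the 6 follicles was left out it stayed between 4.06 and 4.87, with an adjusted p from edgeR of 0.0529 to 0.161.

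The next largest rise, that of ENSBTAG00000048508, was in the most abundant DEG. Its CPM was 891 in S4, 252 in S5 and 428 in S6, against 6912 in M5, 15142 in M6 and 8000.5 in M8. It was the highest in M6, and the stages did not overlap. The log2 fold change was 4.19 with an SE of 0.92 (edgeR adjusted p = 0.0452), and with 1 follicle left out the adjusted p from edgeR was 0.0536 to 0.167.

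In the other retained follicles both genes were low with the exception of single follicles. ENSBTAG00000000736 had a CPM of 14.4 at the lowest, 27.5 at the median and 108 at the highest in the 6 small follicles, and in medium follicles 365 in M1, 18.8 in M2, 12.1 in M3, 21.7 in M4 and 18.1 in M7. ENSBTAG00000048508 had 7.40, 53.5 and 1029 CPM as the lowest, median and highest of the small follicles, the highest being S1. In the medium follicles it had 3012 in M1, 130 in M2, 64.7 in M3, 94.1 in M4 and 74.6 in M7. Outside M1, no medium follicle lay above the highest small one for either gene. The log2 fold changes in these follicles were 1.01 (SE 1.46, edgeR adjusted p = 0.812) and 1.95 (SE 1.53, edgeR adjusted p = 0.604). The differences from healthy follicles were 3.63 (SE 2.27) and 2.30 (SE 2.275) on the log2 scale. With these wide errors edgeR's interaction test did not show a difference (adjusted p = 0.479 and 0.672) and could not exclude a large one.

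The largest fall among the more abundant DEGs was that of ENSBTAG00000044027. Its CPM was 39.8 in S4, 70.7 in S5 and 40.4 in S6, and 4.93 in M5, 6.37 in M6 and 4.94 in M8. The medium follicles lay close together, well below the small ones. The log2 fold change was -3.29 with an SE of 0.35 (edgeR adjusted p = 0.00633, and 0.0555 without M8). The other small follicles ranged from 1.98 in S2 through a median of 24.8 to 164 in S3, and the other medium follicles had 38.0 in M1, 12.0 in M2, 14.5 in M3, 36.3 in M4 and 5.18 in M7. These groups overlapped, with a log2 fold change of -1.17 (SE 1.01, edgeR adjusted p = 0.642). The difference, healthy minus other, was -2.08 (SE 1.40, adjusted p = 0.51 by edgeR's interaction test).

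ENSBTAG00000002854 fell from a CPM of 75.5 in S4, 75.9 in S5 and 43.3 in S6 to 13.4 in M5, 7.76 in M6 and 9.73 in M8. The stages were again apart, with a log2 fold change of -2.71 and an SE of 0.31 (edgeR adjusted p = 0.00825, and 0.0555 without M8). In the other small follicles it ran from 27.6 through a median of 40.9 to 138, and in the other medium follicles it was 38.1 in M1, 39.3 in M2, 44.7 in M3, 13.6 in M4 and 9.67 in M7. M4 and M7 thus reached the level of the healthy medium follicles, and M1, M2 and M3 did not. The log2 fold change there was -0.998 (SE 0.47, edgeR adjusted p = 0.389). The difference, healthy minus other, was -1.655 (SE 0.689, adjusted p = 0.32 by edgeR's interaction test).

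**Figure D2:**
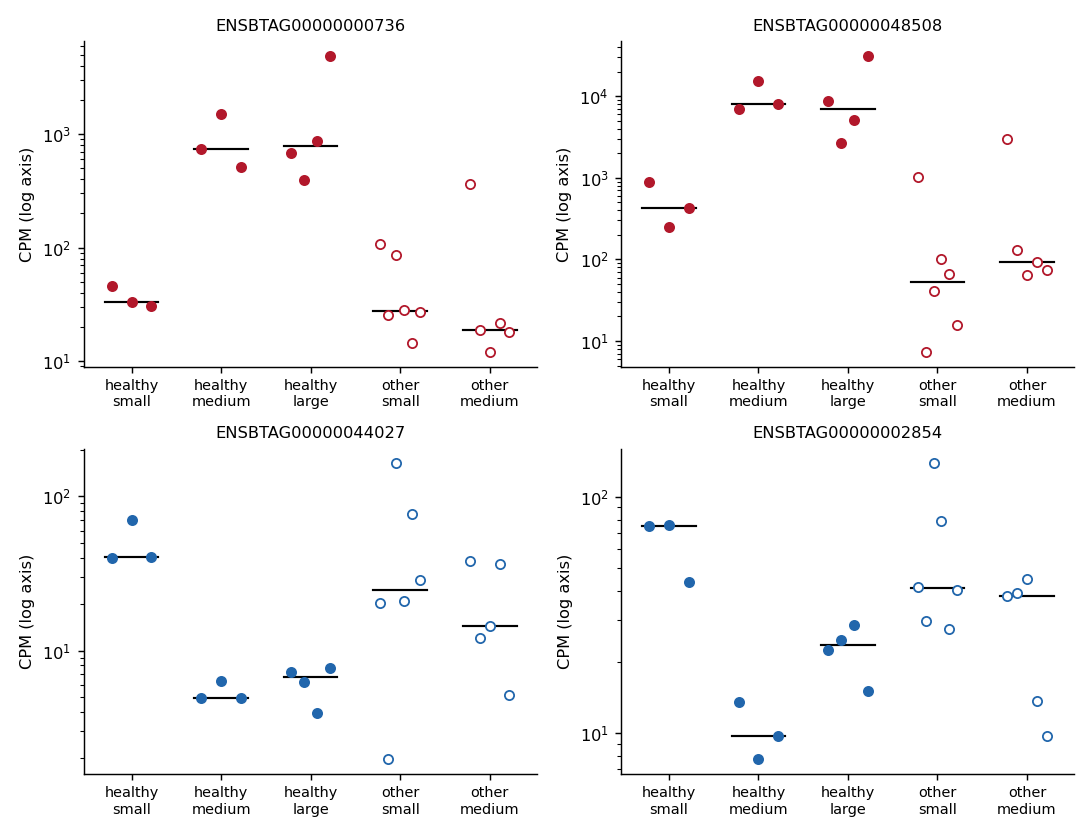
CPM on a log axis of the 4 named genes in each MGC library of healthy small, medium and large follicles (filled points) and of the other retained small and medium follicles (open points), with the group median as a bar. For each gene the healthy medium follicles lie apart from the healthy small ones, while the other small and medium follicles overlap.

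The DEGs were mostly genes of middling abundance, while the share of genes called was nearly flat from 1 to 1000 CPM. With the mean CPM of the 6 libraries between 10 and 100 there were 52 rising and 86 falling genes, and between 100 and 1000 there were 13 and 16, which made 2.02% and 2.08% of the genes tested at these levels. Between 1 and 10 CPM there were 18 and 56 (1.77%), and below 1 CPM the share was 0.229%. The typical rising gene, by the median over genes of the group mean, went from 9.77 CPM in healthy small to 35.5 in healthy medium follicles, and the typical falling gene from 24.2 to 7.39. The medium follicles did not contribute alike. M5 was the lowest of the 3 for 56 of the 85 rising genes and the highest for 83 of the 162 falling genes, so that its levels were the nearest to the small follicles more often than those of M6 or M8. M6 was the lowest for 101 of the falling genes. Over all 14725 genes tested, M5 was the lowest for 6377 and the highest for 5007, and M6 was the lowest for 4035. M5 was thus the lowest most often over all genes too.

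To see whether each change held elsewhere, the same contrast was fitted on the other retained follicles, which share no library with the healthy set. Here 5 genes, 0.0336% of the 14876 tested, were DEGs by edgeR, 1 rising (0.00672%) and 4 falling (0.0269%), and 1035 genes had an unadjusted p under 0.05 with the fold change. DESeq2 called 264 (1.82%), of which 38 rose (0.262%) and 226 fell (1.56%). Of the 85 genes that rose in healthy follicles, 40 (47.1%) had a log2 fold change above 0 in the other follicles, against 47.8% of all genes. Of the 162 that fell, 78 (48.1%) had one below 0, against 51.8% of all genes. The direction in healthy follicles was thus met no more often than over all genes. The median log2 fold change in the other follicles was -0.10 for the rising genes, with quartiles of -0.39 and 0.41, and 0.05 for the falling genes, with quartiles of -0.86 and 0.61.

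**Figure D3:**
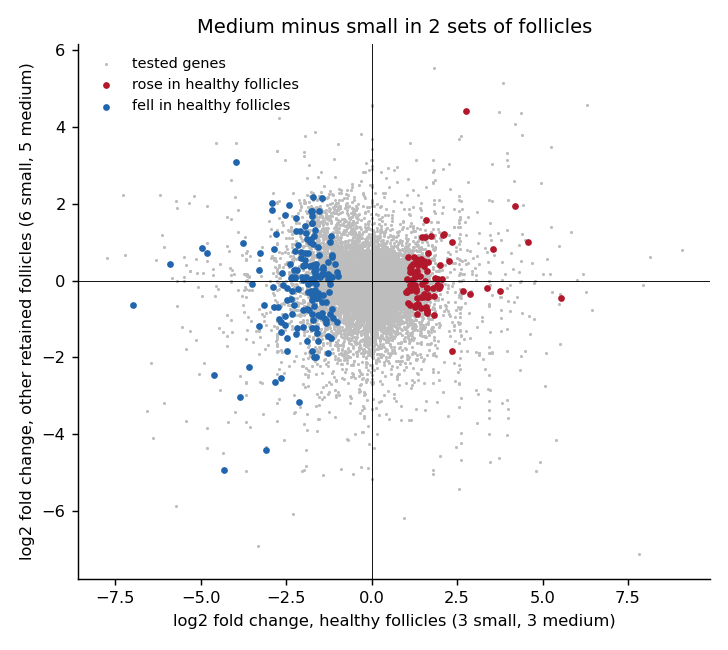
Log2 fold change from small to medium follicles in the other retained follicles against that in healthy follicles, for each gene tested in both (grey), the 85 genes that rose (red) and the 162 that fell (blue) in healthy follicles. The red and blue points lie on both sides of the horizontal zero line, with medians of -0.10 and 0.05.

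A minority of the falling genes also had lower values in the other medium follicles. With the same sign and an unadjusted p under 0.05 from edgeR there were 28 of 162, or 17.3%, where 7.57% of all genes had such a p with a log2 fold change below 0. With the opposite sign and such a p there were 8, where 5.27% of all genes had such a p with a log2 fold change above 0. The log2 fold changes of the 28 genes had a median of -1.82 in healthy and -1.50 in the other follicles. At the median over these 28 genes the CPM was 37.5 in healthy small, 9.47 in healthy medium, 46.1 in other small and 18.9 in other medium follicles. In the CCs of the healthy follicles 16 of the 28 had a log2 fold change below 0, against 42.9% of all genes. For 10 of the 162 falling genes, all 5 other medium follicles lay below all 6 other small ones, which held for 1.09% of all genes. Among the rising genes 4 of 85 (4.71%) had the same sign and such a p, against 5.27% of all genes, and for 1 of the 85 all other medium follicles lay above all other small ones, against 0.971%.

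Genes that fell in both sets as DEGs of edgeR numbered 3, and no gene rose in both. For the first, the 3 healthy small follicles had 17.7 to 26.1 CPM and the 3 healthy medium ones 1.73 to 3.51, and the other small follicles had 13.04 to 227 and the other medium ones 3.53 to 6.42. Its log2 fold change was -3.09 in healthy and -4.42 in the other follicles (edgeR adjusted p = 0.0203 and 0.0454). For the second, the healthy follicles went from between 110 and 161 CPM to between 43.9 and 77.6, and the others from between 103 and 312 to between 37.3 and 70.7. Its log2 fold change was -1.28 and -1.87 (edgeR adjusted p = 0.0429 and 0.0456). The third fell by 1.29 and 1.45 on the log2 scale, from 34.9 to 42.9 CPM down to 11.5 to 20.5 in healthy follicles and from 39.4 to 95.6 down to 18.7 to 26.96 in the others (edgeR adjusted p = 0.0432 and 0.0455). In all 3 genes the small and medium follicles were apart in both sets. The calls in the other follicles were fragile, since leaving out 1 of the 11 follicles gave between 0 and 18 DEGs: 18 without S8, 4 without S9 and 0 without any other one.

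With DESeq2, 7 genes rose in both sets, 1.39% of its DEGs in healthy and 18.4% of those in the other follicles. In both sets 32 fell, 4.01% and 14.2% of the respective DEGs. A single gene that rose in healthy follicles fell in the others, and none went the reverse way. By direction alone, 44.2% of the genes that rose and 44.1% of those that fell in healthy follicles by DESeq2 had the same sign in the others, against 47.8% and 51.8% of all genes. The share called in both sets was above the 0.262% and 1.56% of all genes that DESeq2 called rising and falling in the others, while the share with the same direction was below that of all genes.

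The difference between both contrasts was tested as an interaction over the 27 retained MGC libraries. Under edgeR it reached an adjusted p under 0.05 for none of 14910 genes, and 1998 genes (13.4%) had an unadjusted p under 0.05. DESeq2 called 118 genes (0.809%), 73 with the higher log2 fold change in healthy follicles and 45 with the lower one. A change that was a DEG in healthy follicles and not in the others is thus not shown to differ between the sets by edgeR, which for the members gave a smallest adjusted p of 0.157. The interaction uses the healthy libraries on which the 247 genes were called, and no count over them is given.

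When the 27 retained follicles were fitted together without regard to the healthy set, 63 genes were DEGs by edgeR, 0.423% of 14910, with 4 rising (0.0268%) and 59 falling (0.396%). They included 1 of the 85 rising and 16 of the 162 falling genes, in a fit that contains the healthy libraries. With the identifier digits as a covariate, 5 genes (0.0335%) were called, all falling, 1 of them among the 162. Among the retained follicles, the digits of each healthy small or medium follicle occur at no other stage. The fold changes with this covariate therefore come from other follicles, and do not bear on the change in healthy ones. ENSBTAG00000000736 had a log2 fold change of 3.34 without and 0.84 with this covariate (edgeR adjusted p = 0.194 and 0.824), and ENSBTAG00000002854 had -1.51 and -1.08 (edgeR adjusted p = 0.0505 and 0.441).

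A small and a medium follicle share such digits only in the other set, in 2 pairs. From S2 to M3, 38 of the 85 rising genes and 39 of the 162 falling genes moved in the direction seen in healthy follicles, 44.7% and 24.1%, against 49.2% of all genes. From S9 to M4 these were 22 and 59 genes, 25.9% and 36.4%, against 48.0%. In both pairs the shares were below those of all genes. The shares over all genes pool both directions, so they do not allow for a shift of the whole pair. Each pair has 1 follicle on a side and no replicate. The falling genes were already low in S2, with a median of -2.05 on the log2 scale relative to the healthy small follicles. The share of falling genes from S2 to M3 therefore depends on that starting level.

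Each follicle was then placed by the 247 genes, with a gene on the medium side when its log2(CPM + 0.1) lay nearer to the healthy medium than to the healthy small mean. The healthy follicles fall on their own side by construction, with 0 genes in each small and at least 83 of 85 and 161 of 162 in each medium follicle. Among the other medium follicles, M1 had 58 of 85 rising genes on the medium side, and the remaining 4 had 14 to 24. For the falling genes they had 65 in M1, 31 in M2, 35 in M3, 42 in M4 and 63 in M7 of 162. Since the healthy medium follicles set the means, their counts are no yardstick for the others. The 4 healthy large follicles, which did not enter the means, had 37 to 41 rising and 98 to 147 falling genes on the medium side. Among the other medium follicles M1 had the most in both directions.

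The other small follicles were as varied. S1 had 52 of the 85 rising genes on the medium side, and the others had 6 to 31. S2 had 108 of the 162 falling genes there, and the others had 18 to 45. The median position of the falling genes in S2 was -2.05 on the log2 scale relative to the healthy small follicles, which lies below that of M5 at -1.64 and M8 at -1.70. Without S2 the share of the 247 genes that kept the healthy direction in the other follicles was 55.9%, and without M1 it was 39.3%, where it was 47.8% with all 11.

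**Figure D4:**
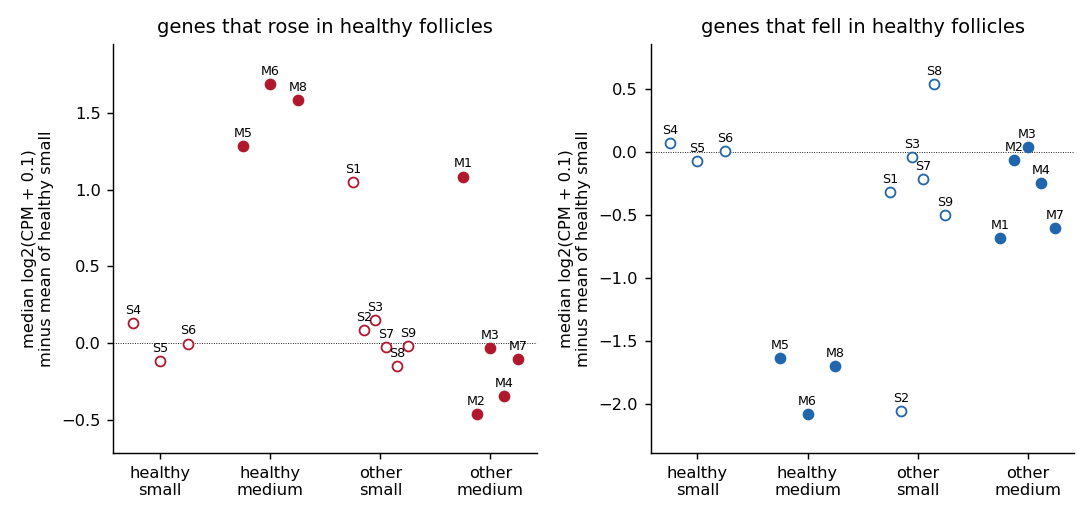
Median over the 85 rising genes (left) and the 162 falling genes (right) of log2(CPM + 0.1) in each follicle minus the mean of the 3 healthy small follicles, with small follicles as open and medium follicles as filled points. S1 and M1 stand above the other retained follicles at left, at 1.05 and 1.09, and S2 stands below them at right, at -2.05.

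Summed over the 85 rising genes, the CPM was 2942 to 3876 in healthy small, 14468 in M5, 25476 in M6 and 19027 in M8. The other small follicles had 2428 to 5711 and the other medium ones 9498 in M1 and 2563 to 3771 in the remaining 4. Without the most abundant gene, ENSBTAG00000048508, the sums were 2690 to 2985 in healthy small and 7556 to 11026 in healthy medium follicles. The 162 falling genes summed to 9247 to 10475 in healthy small, 2407 to 3373 in healthy medium, 6069 to 16499 in other small and 6640.0 to 11456 in other medium follicles. The other medium follicles thus lay within the range of the other small ones for the falling genes, and outside M1 also for the rising ones.

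Against the other follicles of their own stage, the healthy medium follicles stood further apart in these genes than the healthy small ones. All 3 healthy medium follicles lay above all 5 other medium ones for 37 of the 85 rising genes (43.5%, against 9.8% of all genes), and below them for 104 of the 162 falling genes (64.2%, against 19.9%). The 3 healthy small follicles lay below all 6 other small ones for 11 rising genes (12.9%, against 10.5%) and above them for 10 falling genes (6.17%, against 4.13%). These counts rest on the libraries in which the genes were called and from which the healthy set was chosen, and are given as a description. The 3 healthy follicles are set against 5 others at the medium and 6 at the small stage, so separation is not equally likely in both.

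The CC pools of the same 6 follicles were sequenced by the SMART-seq2 protocol for small amounts of RNA. Their fold changes did not enter the choice of genes, although CC levels counted in the filter for the genes tested. Of the 85 genes that rose in MGCs, 69 (81.2%) had a log2 fold change above 0 in CCs, against 56.0% of all genes, with a median of 0.68 against 0.13. With such a sign and an unadjusted p under 0.05 from edgeR there were 15 of 85, where 6.75% of all genes had them, and 1 had the opposite sign. Of the 162 genes that fell, 82 (50.6%) had a value below 0 in CCs, against 42.9% of all genes, and 18 of them had an unadjusted p under 0.05 from edgeR, against 2.75% of all genes, while 9 had one with the opposite sign. The share with the same sign was above that of all genes in both directions, and the rising and falling genes were not tested against each other.

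**Figure D5:**
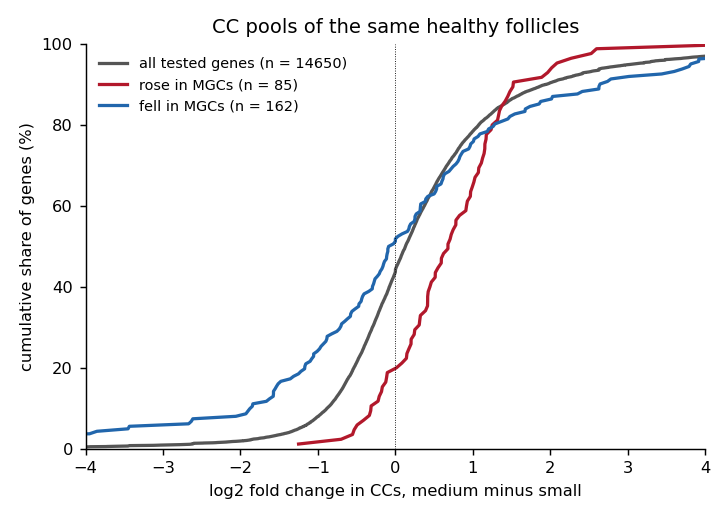
Cumulative share of genes by their log2 fold change from small to medium follicles in the CC pools of the same 6 healthy follicles, for all genes tested in both cell types, the 85 genes that rose and the 162 that fell in MGCs. The red curve crosses zero lower than the grey one, since 81.2% of the genes that rose in MGCs have a value above 0 in CCs.

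ENSBTAG00000000736 had a CPM of 43.9, 42.4 and 31.1 in the CCs of S4, S5 and S6, and of 349.7, 89.6 and 77.0 in those of M5, M6 and M8. The stages did not overlap, with a log2 fold change of 2.27 and an SE of 0.62 (edgeR adjusted p = 0.398). ENSBTAG00000044027 had 33.4, 36.0 and 9.93 in the small and 6.28, 4.18 and 6.99 in the medium follicles, with a log2 fold change of -2.06 and an SE of 0.64 (edgeR adjusted p = 0.476). Neither passed the test over all genes. The CCs come from the same follicles as the MGCs, so the identifier digits and the stage cannot be told apart here either.

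In the oocytes of these follicles, 51 of the 85 genes that rose in MGCs (60.0%) had a log2 fold change above 0, against 52.5% of all genes. Of the 149 falling genes tested there, 71 (47.7%) had one below 0, against 46.7%. With the same sign and an unadjusted p under 0.05 from edgeR there were 2 rising genes and 1 falling gene, and with the opposite sign 2 and 7. Over all genes, 3.72% had such a p with a log2 fold change above 0 and 2.0% with one below 0. ENSBTAG00000000736 was near absent, with no count in any oocyte of the small follicles, which allows up to 3 counts a library, and at most 11 counts in those of the medium follicles.

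By the highest mean CPM among the 3 cell types, 88 of the 162 genes that fell (54.3%) were highest in MGCs, against 28.8% of all genes, and 33 of the 85 that rose (38.8%). Many falling genes were low elsewhere: 53 (32.7%) had a mean below 1 CPM in CCs, against 18.3% of all genes, and 62 (38.3%) in oocytes, against 14.8%. Of the rising genes, 3 (3.53%) and 12 (14.1%) did so. MGC libraries were made by another protocol than those of CCs and oocytes, and the part of the protocol in these shares was not tested. A gene must also be expressed in MGCs to be a DEG there, whereas the genes tested include 2185 with a mean below 1 CPM in the 6 libraries, so the share highest in MGCs is in part set by the choice of genes.

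In the MGCs of the 4 healthy large follicles, the mean of 57 of the 162 falling genes lay still lower than in medium follicles, that of 99 between medium and small, and that of 6 above the small follicles. Of the 85 rising genes, 21 were higher still, 36 lay between and 28 were below the small follicles. The typical rising gene had 18.8 CPM in large follicles and the typical falling gene 9.40. Of all 14725 genes tested, 4987 lay beyond medium and away from small, 4439 between and 5084 back past small. Few of the falling genes thus went back past the small follicles, while the rising genes were spread over these outcomes, as all genes were. This description shares the small and medium libraries with the choice of genes.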

How the data were processed

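The authors trimmed the reads, aligned them uniquely to ARS-UCD1.2 and summed them over exons with featureCounts, and the deposited values are unnormalized counts per gene. The methods and the processing notes name different aligners, and which one made the table is not known here. The counts may include both mates of a pair, since 56.3 to 66.6% of the counts from 1 to 20 were even.

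Of 27270 genes, 15134 exceeded 1 CPM in 15 or more retained libraries from a single cell type and were kept. Stages were compared with edgeR 4.0.16 in R 4.3.3 (TMM, glmQLFit, glmQLFTest, Benjamini-Hochberg), in one fit over the 3 stages of the 10 healthy MGC libraries and in another over 17 other retained ones (6 small, 5 medium, 6 large). SE is the log2 fold change over the root of F. DESeq2 1.42.0 was the alternative. CPM is per library total. Scripts were tested on simulated data. The named genes are the 2 largest rises and 2 largest falls among the DEGs whose libraries did not overlap and whose mean log2 CPM reached 3. The follicles, lists and tests were chosen with earlier results of these data known. Planned gene lists and markers were not applied, for want of symbols.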

Additional observations from a re-analysis of the deposited data

Results flagged for a closer look

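Of 18 groups of 4 to 6 follicles examined for a single library far from the rest, 5 had one, where chance would give about 1 in 20. The groups share follicles and genes, and the genes were picked for large changes, which that rate does not allow for. M1 stood apart among the other medium follicles in 3 of them, with a CPM of 365 for ENSBTAG00000000736 (the others 12.1 to 21.7), of 3012 for ENSBTAG00000048508 (the others 64.7 to 130) and a summed CPM of 9498 for the genes that rose (the others 2563 to 3771). These 3 values are not independent, since both genes are part of the sum. S1 stood apart among the other small follicles with 1029 CPM of ENSBTAG00000048508 (the others 7.40 to 101). L10 stood apart among the healthy large follicles with 4849.9 CPM of ENSBTAG00000000736 (the others 395 to 876).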

How the results depend on the processing

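From small to medium healthy follicles, 247 genes were DEGs. The count was 1303 with DESeq2, 1621 when edgeR was fitted on the 6 libraries alone and 1946 at an unadjusted p. It was 63 over the 27 retained follicles and 0 to 198 with 1 follicle left out. With the identifier digits as covariate 5 genes were called. That fit is no variant of the count, since the healthy small and medium libraries do not inform its contrast. Fits on the 6 libraries alone called all 247 again. The other retained follicles gave 5 DEGs, against 264 with DESeq2, 0 when fitted on the 11 libraries alone (1154 at an unadjusted p with the fold change) and 0 to 18 with 1 follicle left out. The interaction gave 0 genes with edgeR in each fit that left out 1 healthy follicle and 118 with DESeq2. Over the 27 follicles edgeR called 63, DESeq2 256 and edgeR with the covariate 5. Other normalization and filters kept each count within 1.5 times, and the share of the 247 genes with the same direction in the other follicles stayed between 39.3% and 55.9%. The cause of these differences was not tested. No paired analysis was possible because the replicate numbers only follow accession order and mark nothing shared, and the identifier digits served as the covariate instead. Follicles of a stage differed by far more than counting error at these depths.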

Other observations

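The 3 follicles that the study removed entered no comparison of stages. In the removed small follicle, 21 of the 85 rising and 36 of the 162 falling genes lay on the medium side. In the removed medium follicles these were 24 and 52 genes in one and 31 and 82 in the other, which shares its identifier digits with M6. Their summed CPM of the rising genes was 4614 and 5769, against 25476 in M6.

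Among the large follicles outside the healthy set, L6 had 38 of the 85 rising and 151 of the 162 falling genes on the medium side, with a summed CPM of 38883 for the rising genes and 1419 for the falling ones. The 4 healthy large follicles had 37 to 41 and 98 to 147 such genes, with sums of 8841 to 42635.5 and 2111 to 4193. In L6 ENSBTAG00000000736 had 9375.9 CPM and ENSBTAG00000048508 22359, and ENSBTAG00000044027 had no count. L2 had 459 CPM of the first and 5345 of the second, and 51 of the 85 rising but 46 of the 162 falling genes on the medium side. The remaining 4 other large follicles had 18.6 to 25.5 CPM of the first.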
